A study of Mus musculus with 20 samples.

Results

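The genes described here are the enzymes that place, copy and remove 5-methylcytosine in mouse embryonic stem cells, together with the proteins that guide them. They were chosen by symbol: Dnmt1, Uhrf1 and Uhrf2 for the copying of methylation after replication, Dnmt3a, Dnmt3b and Dnmt3l for new methylation, Tet1, Tet2 and Tet3 for oxidation, and Tdg for excision. Earlier results of these data were known when they were chosen, so their counts beside all genes are descriptions. All 10 were found among the 13283 genes of the table, and all 10 passed the filter on low values in every comparison. DNMT1 copies the methylation pattern onto the new strand behind the replication fork, where UHRF1 recognises the half-methylated sites. DNMT3A and DNMT3B add methyl groups to unmethylated sites with DNMT3L as a partner that has no activity of its own. TET enzymes oxidise the methyl group, and TDG cuts out the oxidised bases so that base excision repair can replace them. In embryonic stem cells the 2i inhibitors lower DNA methylation, and UHRF1 and the DNMT3 enzymes are known to be involved in that loss.

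The cells, labelled C57BL/6 and male, were kept in serum with LIF and 2i, and their poly(A) RNA was sequenced. The question named by the series title is how alike loss of TRIM71, an RNA-binding protein found in pluripotent cells, and its homozygous R595H change are in their transcripts. Trim71-cond cells carry a floxed Trim71 (genotype label Trimfl/fl), and Trim71-KO cells are the knockout, with 4 libraries each that share the codes 1A, 2B, 3A and 3B. Both groups carry the day label 1 for 1A, 2 for 2B and 3 for 3A and 3B, and the reported fit pooled these days. The clonal system holds 3 clones each of WT (C16, C7, C5), R595H/+ (C15, C21, C23) and R595H/R595H (C14, C20, C24), each line being 1 clone. Clones C16, C15 and C14 have 2 libraries, labelled 20/1 and 5/2, which were averaged, so that a clone counts once. The sources used here do not say how the floxed allele was deleted or how R595H was introduced. Nothing in the labels says that the libraries of a conditional group came from separate cultures, and p-values there measure the spread between these libraries.

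Trim71 itself lay between 7.43 and 7.53 in the Trim71-KO libraries and between 8.93 and 9.01 in the Trim71-cond libraries on the log2 scale of the table. It lay at 9.48 to 9.53 in the WT clones, 9.55 to 9.63 in R595H/+ and 10.0 to 10.2 in R595H/R595H. The labels do not say which part of the gene is deleted, so remaining reads check the labels only in part. All 17 pluripotency markers looked for were in the table, with a mean of 8.40 to 8.65 in each library, whereas the mean of the 7 lineage markers found of 15 was at most 1.16 and that of the 3 fibroblast markers found of 10 at most 2.64. In bulk RNA, fewer cells of a type and less RNA per cell cannot be told apart. Of the 16 pluripotency markers tested, 7 rose and 3 fell in Trim71-KO, where 9.24% of all genes rose and 9.37% fell, and 2 rose and 1 fell in R595H/R595H, where 2.19% rose and 1.23% fell (limma, adjusted p under 0.05). Averaged over 4 Y-linked genes, the libraries read 5.88 to 6.20 in Trim71-cond, 5.65 to 5.80 in Trim71-KO, 3.89 to 6.00 in WT, 4.02 to 5.61 in R595H/+ and 3.72 to 4.36 in R595H/R595H, all under the label male. Their part in the results was not tested beyond the covariate fit given with Dnmt3b and Tet2. The 2 libraries of clone C14 differed by a root mean square of 0.030 over all genes, against 0.133 and 0.137 for the 2 libraries of C15 and C16. Clone C24 differed from each C14 library by 0.083, less than the repeats of C15 or C16 differed. The 20/1 library of C16 was nearer to WT C7 and C5 (each 0.121) and to the 5/2 library of R595H/+ C15 (0.122) than to its own repeat. The deviations of the 2 libraries of code 1A from their group means correlated at -0.89 across genes. Depth is unknown, because the values are not counts.

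Levels between genes were compared per kb of exon, as the mean log2 value minus the log2 of the exon length in GENCODE's GRCm38 annotation. In the WT clones Uhrf1 stood first at 7.06 ± 0.13 (SD, n = 3 clones) and Tet1 next at 6.99 ± 0.11, with overlapping ranges. Dnmt1 followed at 6.65 ± 0.08 and Tet2 at 6.61 ± 0.10, which also overlapped. Dnmt3l at 6.21 ± 0.23, Uhrf2 at 5.58 ± 0.21 and Dnmt3b at 4.79 ± 0.18 each lay below the gene before them without overlap. Dnmt3a at 3.53 ± 0.14 and Tdg at 3.53 ± 0.08 were together, and Tet3 was last at 0.81 ± 0.14. Tet1 and Tet2 were therefore the TET genes with most transcript per kb, and Dnmt3l, the partner without activity, exceeded both catalytic DNMT3 genes. With the longest transcript in place of all exons, Dnmt3l moved from place 5 to place 3. In Trim71-cond the order began Uhrf1, Dnmt1 and Tet1, at 7.23, 6.81 and 6.73, of which Dnmt1 and Tet1 overlapped, and with the longest transcript Dnmt3l was second at 7.08. In Trim71-KO and in R595H/R595H, Tet2 was first by exon length, at 6.91 ± 0.05 (n = 4 libraries) and 7.15 ± 0.08 (n = 3 clones). With the longest transcript Tet2 was still first in R595H/R595H at 7.15, whereas in Trim71-KO Dnmt3l was first at 7.29 and Tet2 second at 6.91. By exon length, the Tet2 range in Trim71-KO overlapped that of Tet1 behind it, and the Tet2 range in R595H/R595H did not overlap that of Uhrf1 behind it.

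**Figure D1:**
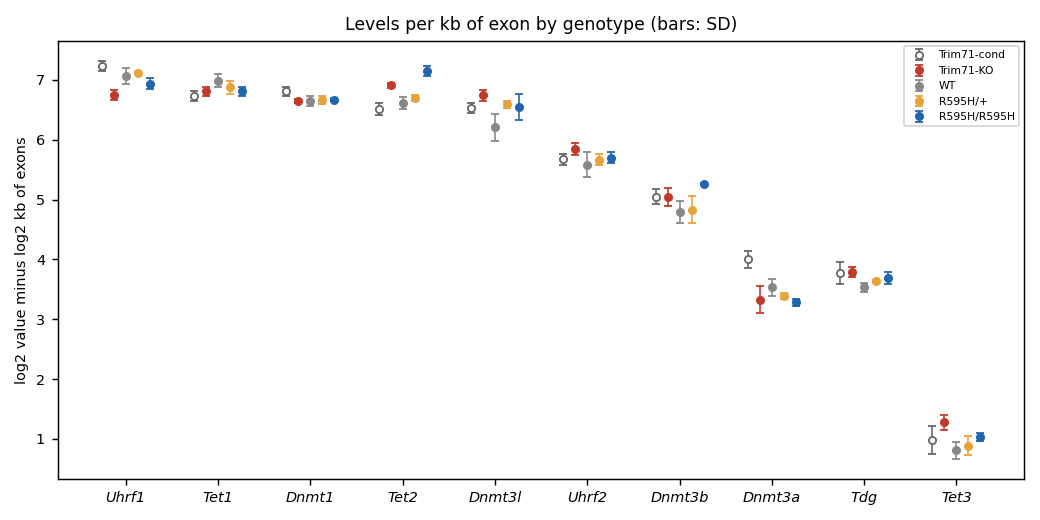
Mean log2 value per kb of exon (vertical axis) for each gene, ordered by its WT level, with SD bars over 4 libraries or 3 clones per genotype. Tet2 stands highest of the 10 genes in R595H/R595H at 7.15, and Tet3 lowest in WT at 0.81.

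Against Trim71-cond, Trim71-KO cells had less Dnmt3a, Uhrf1 and Dnmt1 and more Tet2 and Dnmt3l. So 5 of the 10 genes changed at an adjusted p under 0.05 (limma, Benjamini-Hochberg over all 9580 genes tested), 3 lower and 2 higher, where 18.6% of all genes changed, 9.37% lower and 9.24% higher. At an unadjusted p under 0.05 it was 7 of 10 against 32.7% of all genes. The groups did not overlap for 4 of the 10, against 20.8% of all genes. The median log2 difference was 0.05 over the 10 genes and -0.003 over all genes, and its median size was 0.19 against 0.11. In R595H/R595H against WT, 2 of the 10 changed, Tet2 and Dnmt3b, both higher, where 3.42% of 9587 genes changed, 2.19% higher and 1.23% lower. Of all genes 210 rose and 118 fell there, a split that became 72 and 85 with equal linear totals and 147 and 162 with equal medians. At an unadjusted p under 0.05 there were 6 of 10 members, against 21% of all genes. For 5 of the 10 the R595H/R595H and WT clones did not overlap, against 29.7% of all genes. The median difference was 0.14 over the 10 genes and -0.002 over all genes.

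**Figure D2:**
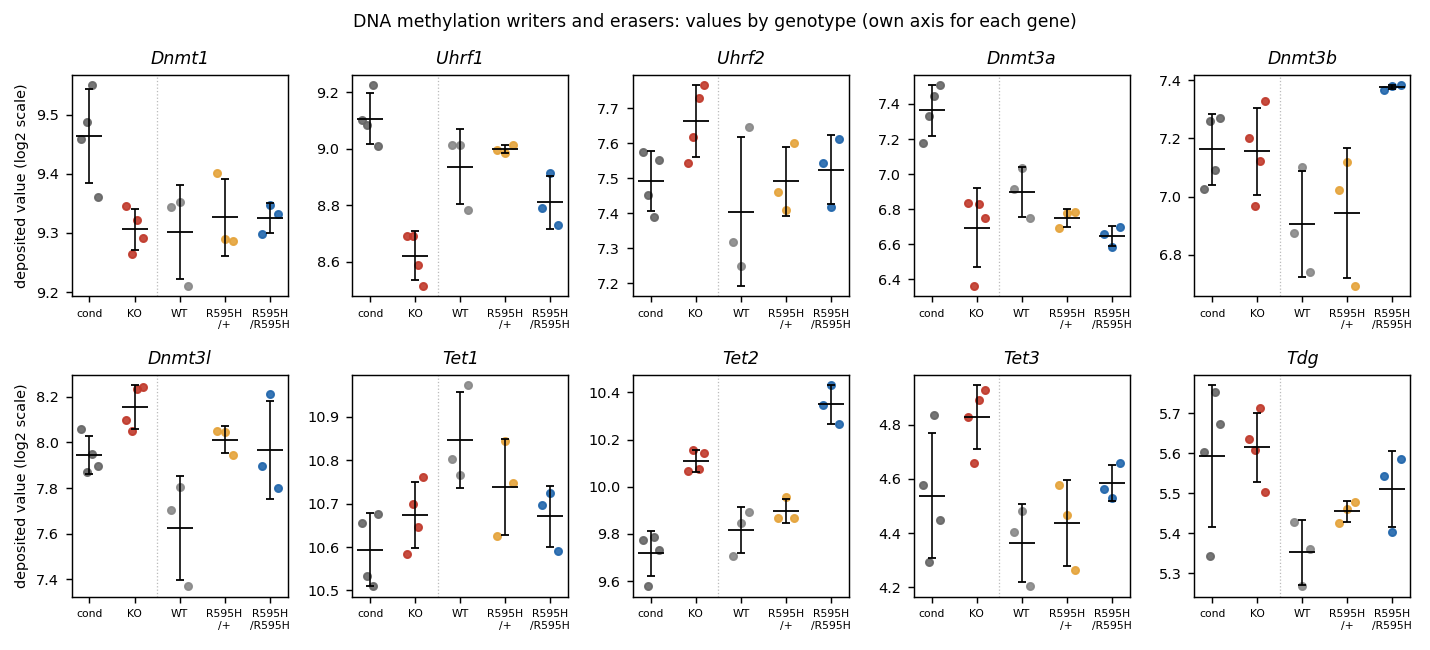
Deposited values on a log2 scale (vertical axes, a separate range for each gene) in every conditional library and every clone, with the group mean and SD as bars. For Uhrf1 and Dnmt3a the Trim71-KO libraries lie below all Trim71-cond libraries, and for Tet2 the Trim71-KO and R595H/R595H points lie above their controls.

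Of the maintenance genes, Uhrf1, which brings DNMT1 to half-methylated sites, fell most. It read 9.10, 9.09, 9.23 and 9.01 in Trim71-cond libraries 1A, 2B, 3A and 3B, and 8.69, 8.69, 8.59 and 8.51 in the Trim71-KO libraries of the same codes. Every Trim71-KO library was below every Trim71-cond library. The log2 difference was -0.49 ± 0.06 (SE; limma adjusted p 1.2e-05), a 1.40-fold lower level, and the exact two-sided permutation p over libraries was 0.0286, the smallest that 4 against 4 allow. In the clones Uhrf1 overlapped between R595H/R595H (8.73 to 8.91) and WT (8.78 to 9.01), with a difference of -0.13 ± 0.08 that did not pass the test (limma adjusted p 0.371). The difference of both effects, -0.36 ± 0.10, had a limma adjusted p of 0.060, and of 0.0486 without R595H/+ clone C21, which is not part of the contrast.

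Dnmt1, the maintenance methyltransferase, fell by less. Its values were 9.46, 9.49, 9.55 and 9.36 in Trim71-cond 1A, 2B, 3A and 3B, and 9.35, 9.26, 9.32 and 9.29 in Trim71-KO. The groups were separate by a narrow margin, and the log2 difference was -0.16 ± 0.05 (limma adjusted p 0.0366). That call ended in 12 of the 17 alternatives run: with the replicate codes as a block (limma adjusted p 0.057), with the day as a block (0.072), with quantile normalization (0.060), with equal linear totals (0.055), without the trend and robust settings (0.104), without both 1A libraries (0.078), and in 6 of the 8 fits with a single library left out (up to 0.120). In R595H/R595H it differed from WT by 0.02 ± 0.07 (limma adjusted p 0.881), with a 95% interval of -0.12 to 0.17. Dnmt1 minus Uhrf1 within a library was 0.32 to 0.40 in Trim71-cond and 0.57 to 0.78 in Trim71-KO, so the transcripts of the pair moved apart there. In the clones it was 0.33 to 0.43 in WT, 0.43 to 0.60 in R595H/R595H and 0.27 to 0.40 in R595H/+.

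Uhrf2, the paralog of Uhrf1 that does not replace it in maintenance, lay in the other direction. It read 7.39 to 7.57 in Trim71-cond and 7.54 to 7.77 in Trim71-KO, with a difference of 0.17 ± 0.07 that missed the threshold (limma adjusted p 0.082). Without both 1A libraries the difference was 0.24 (limma adjusted p 0.046). In R595H/R595H it was 0.12 ± 0.10 above WT, within the spread of the clones (limma adjusted p 0.532).

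The promoters of Dnmt1 and Uhrf1 are shown because these were the members that held a word of the E2F type, the motif of the factors that time S phase genes. RefSeq's GRCm38.p6 promoters, 250 bases before to 50 after each start, were searched on both strands for TTTCCCGC, TTTGGCGC, TTTGCCGC and TTTCGCGC, which do not overlap one another in these sequences. A word was in 704 of 27025 genes (2.605%), in 2 of the 10 members, and in 7 of 21 matched S phase genes. Every word holds a CpG, and the members' 17 promoters had a median of 22 CpGs against 7 over all promoters, so the share over all genes is not a like background. Capitals mark the words, 2 in Dnmt1 and 1 in Uhrf1, and the first in Dnmt1 is on the other strand.
Dnmt1 (chr9:20952574-20952873, minus strand): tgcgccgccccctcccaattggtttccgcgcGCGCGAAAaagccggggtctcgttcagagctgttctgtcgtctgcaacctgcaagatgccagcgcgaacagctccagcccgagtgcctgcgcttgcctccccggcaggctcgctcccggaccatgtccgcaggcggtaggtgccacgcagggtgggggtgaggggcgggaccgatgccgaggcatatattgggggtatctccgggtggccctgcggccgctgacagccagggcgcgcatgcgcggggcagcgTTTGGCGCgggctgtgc
Uhrf1 (chr17:56304063-56304362, plus strand): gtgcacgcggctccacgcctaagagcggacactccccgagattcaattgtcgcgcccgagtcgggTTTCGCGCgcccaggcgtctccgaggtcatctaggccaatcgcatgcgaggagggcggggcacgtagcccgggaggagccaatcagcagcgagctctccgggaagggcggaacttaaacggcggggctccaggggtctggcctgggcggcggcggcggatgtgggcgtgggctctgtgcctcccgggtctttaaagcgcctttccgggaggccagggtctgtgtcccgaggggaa
A match of letters is a description, not a site of binding, and the other promoters of these genes in the RefSeq set held no word.

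The DNMT3 genes, which methylate new sites, did not move as a family. Dnmt3a read 7.18, 7.33, 7.44 and 7.51 in Trim71-cond 1A, 2B, 3A and 3B, and 6.83, 6.36, 6.83 and 6.75 in Trim71-KO. All Trim71-KO libraries were below all Trim71-cond libraries, and 2B was lowest. The log2 difference was -0.67 ± 0.09 (limma adjusted p 6.5e-05), or 1.59-fold lower, the largest size among the 10 genes. By code it was -0.34 in 1A, -0.97 in 2B, -0.61 in 3A and -0.76 in 3B. In the clones the R595H/R595H values of 6.58, 6.66 and 6.70 were below the WT values of 6.75, 6.91 and 7.03 without overlap. That difference, -0.25 ± 0.09, did not pass (limma adjusted p 0.112; exact permutation p 0.1, the smallest that 3 against 3 allow). Trim71-cond cells stood higher than WT clones in Dnmt3a, at a mean of 7.37 ± 0.15 against 6.90 ± 0.14 (SD), but the systems differ in starting cells and handling, and that gap was not tested. The difference between the effects was -0.42 ± 0.14 (limma adjusted p 0.113).

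Dnmt3b, the other catalytic enzyme, was called in R595H/R595H and not in Trim71-KO. In Trim71-cond it read 7.03, 7.26, 7.09 and 7.27 for 1A, 2B, 3A and 3B, and in Trim71-KO 7.20, 6.97, 7.12 and 7.33. The groups overlapped throughout, and the difference of -0.01 ± 0.08 (limma adjusted p 0.960) had a 95% interval of -0.17 to 0.16. In R595H/R595H the 3 clones read 7.37, 7.38 and 7.38, above the WT clones at 6.74, 6.88 and 7.10. The difference of 0.47 ± 0.11 passed (limma adjusted p 0.034; 1.38-fold). It did not with equal linear totals (0.067), nor when any of the clones C16, C7, C14, C20, C24 or C15 was left out (limma adjusted p 0.054 to 0.134, with differences of 0.39 to 0.47). Within 1 label of the libraries, C14 exceeded C16 by 0.49 among those of 20/1 and by 0.49 among those of 5/2. The same clones are compared under both labels, so this is no separate repeat. With the Y-linked mean as a covariate the number of members called stayed at 2. The test of Trim71-KO against R595H/R595H effects gave -0.48 ± 0.14 (limma adjusted p 0.073). It passed without WT clone C5 (limma adjusted p 0.043), and without C21 (0.0499) or C23 (0.046), R595H/+ clones that are not part of the contrast.

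Dnmt3l, which stimulates the catalytic enzymes, was higher in Trim71-KO. It read 8.06, 7.87, 7.95 and 7.90 in Trim71-cond 1A, 2B, 3A and 3B, and 8.10, 8.05, 8.23 and 8.24 in Trim71-KO. The 2B Trim71-KO library was just below the 1A Trim71-cond library, so the groups overlapped. The log2 difference was 0.21 ± 0.06 (limma adjusted p 0.0253; exact permutation p 0.0571). The call was lost without trend and robust settings (limma adjusted p 0.056) and without any 1 of Trim71-cond 2B, Trim71-cond 3B, Trim71-KO 3A and Trim71-KO 3B (0.066 to 0.080). In the clones it was 0.34 ± 0.12 higher in R595H/R595H (limma adjusted p 0.109) and 0.39 ± 0.12 higher in R595H/+ (limma adjusted p 0.528) than in the same WT clones. WT clone C7 was lowest there, at 7.37.

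Within a library the other DNMT3 genes stood higher relative to Dnmt3a in Trim71-KO and R595H/R595H than in their controls, a description with no test of its own. Dnmt3b minus Dnmt3a was -0.35 to -0.07 in Trim71-cond and 0.29 to 0.61 in Trim71-KO. It was -0.04 to 0.07 in WT and 0.68 to 0.80 in R595H/R595H, with R595H/+ from -0.09 to 0.34. In Trim71-KO this went with a lower Dnmt3a, and in R595H/R595H with a higher Dnmt3b beside a Dnmt3a that did not pass the test. Dnmt3l minus Dnmt3a likewise ran from 0.39 to 0.88 in Trim71-cond and from 1.27 to 1.69 in Trim71-KO. In the clones it ran from 0.62 to 0.79 in WT, 1.10 to 1.63 in R595H/R595H and 1.16 to 1.36 in R595H/+. Dnmt3l minus Dnmt3b overlapped between Trim71-cond (0.61 to 1.03) and Trim71-KO (0.90 to 1.11), and between WT (0.63 to 0.83) and R595H/R595H (0.42 to 0.83). In R595H/+ it was 0.92 to 1.25, above both other clonal groups. These differences between genes are log2 values not set per length, so only their shifts between groups can be read.

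**Figure D3:**
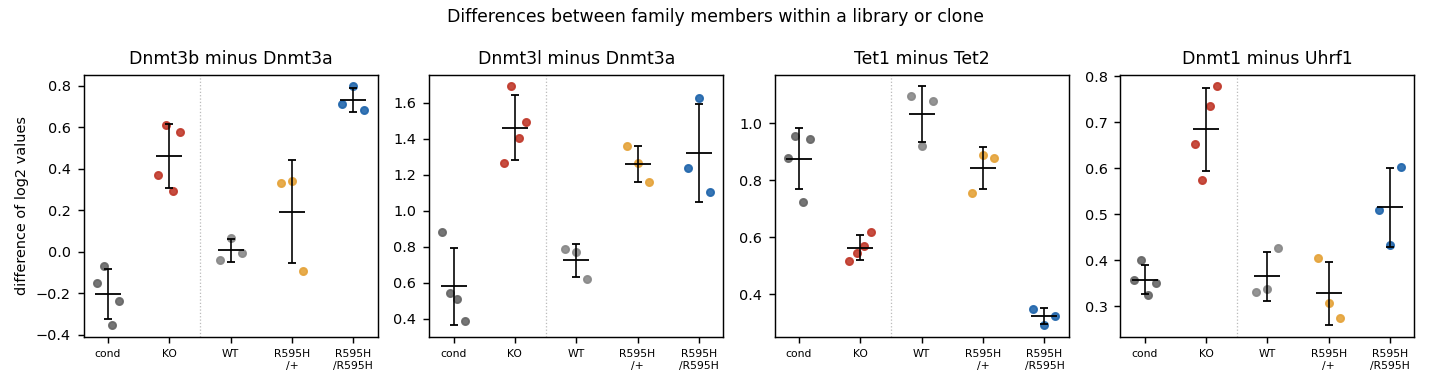
Difference of the log2 values of 2 family members (vertical axes) within each conditional library or clone, with group mean and SD as bars. Dnmt3b minus Dnmt3a is higher and Tet1 minus Tet2 lower in Trim71-KO and R595H/R595H than in their controls, with no overlap.

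Of the TET genes, Tet2 rose in both systems. It read 9.78, 9.58, 9.79 and 9.73 in Trim71-cond 1A, 2B, 3A and 3B, and 10.07, 10.16, 10.08 and 10.14 in Trim71-KO. The groups were separate, with a log2 difference of 0.39 ± 0.05 (limma adjusted p 3e-05), or 1.31-fold. In the clones it read 9.71, 9.89 and 9.85 in WT C16, C7 and C5, and 10.35, 10.43 and 10.27 in R595H/R595H C14, C20 and C24. These groups were separate too, by 0.53 ± 0.07 (limma adjusted p 0.0019; 1.45-fold). C14 exceeded C16 by 0.53 among libraries labelled 20/1 and by 0.76 among those labelled 5/2. The same 2 clones are compared under both labels, and both C14 libraries read 10.35, so this is no separate repeat. Both calls held in all alternatives run, 17 for Trim71-KO (0.35 to 0.43) and 18 for R595H/R595H (0.48 to 0.58).

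In R595H/+ Tet2 lay at 9.87 to 9.95, 0.08 ± 0.07 above WT (limma adjusted p 0.851). It was 0.45 ± 0.07 higher in R595H/R595H than in R595H/+ (limma adjusted p 0.015), the 1 member of 10 called there, where 0.772% of all genes were. That call was lost with equal linear totals (limma adjusted p 0.065), with the Y-linked mean as a covariate (0.082), without C14 (0.076) and without C15 (0.075), the difference staying at 0.41 to 0.49 in all alternatives. The Trim71-KO effect on Tet2 minus the R595H/R595H effect was -0.14 ± 0.09 (limma adjusted p 0.422), with a 95% interval of -0.32 to 0.04.

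Tet1, with Tet2 the main TET enzyme of embryonic stem cells, did not pass in any comparison. In Trim71-cond it read 10.51 to 10.68 and in Trim71-KO 10.58 to 10.76, a difference of 0.08 ± 0.05 (limma adjusted p 0.291). In R595H/R595H it read 10.59 to 10.72 against 10.77 to 10.97 in WT, without overlap, and the difference of -0.18 ± 0.08 had a limma adjusted p of 0.212. Tet1 minus Tet2 was 0.72 to 0.96 in Trim71-cond and 0.52 to 0.62 in Trim71-KO. It was 0.92 to 1.10 in WT, 0.76 to 0.89 in R595H/+ and 0.29 to 0.35 in R595H/R595H.

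Tet3, the TET enzyme best known from the zygote, was near the filter at 4.29 to 4.84 in Trim71-cond and 4.66 to 4.93 in Trim71-KO. The difference of 0.29 ± 0.10 just missed (limma adjusted p 0.0555). It passed with equal linear totals (0.0487), without Trim71-cond 3A (0.0127) and without Trim71-KO 2B (0.040). In the clones it was 4.53 to 4.66 in R595H/R595H and 4.20 to 4.48 in WT, a difference of 0.22 ± 0.10 (limma adjusted p 0.226). Low values of this table resemble regularized ones, which would understate the differences of a low gene.

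Tdg, the glycosylase that removes oxidised methylcytosine, showed no called difference. It read 5.34 to 5.75 in Trim71-cond and 5.50 to 5.71 in Trim71-KO, a difference of 0.02 ± 0.09 (limma adjusted p 0.897; 95% interval -0.17 to 0.21). It was 0.16 ± 0.09 above WT in R595H/R595H (limma adjusted p 0.307). A stretch of 367 bases, 10.4% of its exons, lies in exons of Glt8d2 on the other strand, and reads from the pair cannot be told apart because strand use in counting is not stated. Pseudogenes named after Dnmt3a, Dnmt3l and Tdg, 1 each, could take reads from them.

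**Figure D4:**
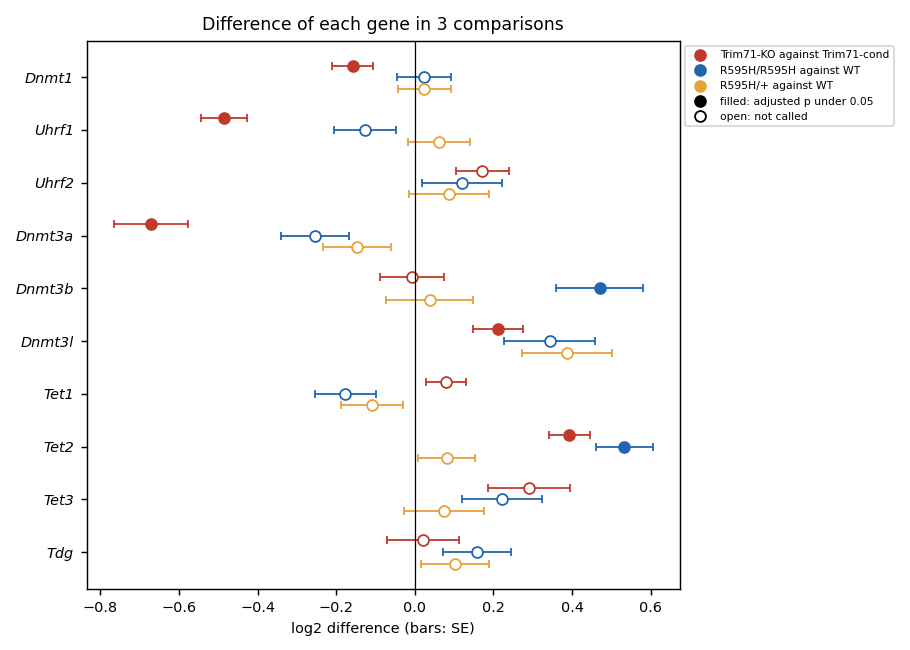
Log2 difference (horizontal axis) of each gene with its SE in 3 comparisons, filled where the adjusted p was under 0.05. Tet2 is filled on the right in Trim71-KO (0.39) and R595H/R595H (0.53), Dnmt3a and Uhrf1 on the left in Trim71-KO (-0.67 and -0.49), and no R595H/+ point is filled.

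In R595H/+ against WT, limma called 0 of the 10 genes and 0 of the 9587 tested (0%), with or without trend and robust settings. At an unadjusted p under 0.05 there were 734 genes (7.66%), among them 1 member, Dnmt3l. Its clones at 7.94 to 8.05 did not overlap the WT clones at 7.37 to 7.80, and it was the 1 member of 10 without overlap, against 12.5% of all genes. This comparison shares its WT clones with that of R595H/R595H. In R595H/R595H against R595H/+, 3 of 10 did not overlap (Dnmt3b, Tet2 and Uhrf1), against 25.4% of all genes, and the same 3 had an unadjusted p under 0.05, against 18.7%. Dnmt3b differed there by 0.43 ± 0.11 (limma adjusted p 0.073).

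A test of the Trim71-KO effect against the R595H/R595H effect called none of the 10 members by limma and 1.42% of 9585 genes. At an unadjusted p under 0.05 it was 5 of 10 (Uhrf1, Dnmt3b, Dnmt3a, Tet1 and Dnmt1) against 17.4% of all genes. Genotype and starting cells cannot be told apart in that test.

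In their 3' UTRs 6 members, Dnmt3a, Dnmt3b, the TET genes and Tdg, share a feature that the choice by function did not use, a 7-base match to the seed of miR-29. The sites are printed because they group genes of opposite function. The match, TGGTGCT, was in 1538 of 9460 annotated 3' UTRs (16.258%). It occurred 8 times in Tet3, 7 in Tet1, 5 in Dnmt3a, 5 in Tet2, 3 in Tdg and once in Dnmt3b. The members' UTRs run from 273 to 7962 bases, beside a median of 1251, and longer UTRs hold more matches. The site nearest the stop codon of each is shown on GRCm38 with the match in capitals, after RefSeq's mature miRNA (GRCm38.p6) with its seed, bases 2 to 8, in capitals.
mmu-miR-29a-3p: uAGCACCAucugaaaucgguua
Dnmt3a (chr12:3908557-3908578, plus strand): atcccgacttcataaTGGTGCT
Dnmt3b (chr2:153686612-153686633, plus strand): tagagtagcccggcaTGGTGCT
Tet1 (chr10:62812210-62812231, minus strand): tagaaccatagagtcTGGTGCT
Tet2 (chr3:133466333-133466354, minus strand): agttgcaggatcatcTGGTGCT
Tet3 (chr6:83367985-83368006, minus strand): gcccgagctgctctgTGGTGCT
Tdg (chr10:82649490-82649511, plus strand): taatcctgtttaaacTGGTGCT
Of the 6 genes, Dnmt3a fell and Tet2 rose in Trim71-KO, and the others were not called. In R595H/R595H against WT, Tet2 and Dnmt3b rose and the others were not called. The miRNAs were not measured in these data, and a part of miR-29 in these values was not tested.

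The match to let-7, a miRNA family of differentiated cells that is itself known to target Trim71, was in 2 members, Uhrf2 and Tet3, and in 1011 of 9460 UTRs (10.687%). Both genes had positive differences in Trim71-KO that missed the threshold, given above.
mmu-let-7a-5p: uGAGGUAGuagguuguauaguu
Uhrf2 (chr19:30093125-30093146, plus strand): tgatttattttgcaaCTACCTC
Tet3 (chr6:83365330-83365351, minus strand): cactacatgtataacCTACCTC

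The genes around these enzymes were counted in lists drawn up by function. The lists were chosen with earlier results of these data known, so their counts beside all genes are descriptions. Of 10 tested genes on the list for cofactors of maintenance, 3 fell in Trim71-KO and none rose. There 9.37% of all genes fell, and the median was -0.05 beside -0.003 for all genes. The 3 were Lig1, the replicative DNA ligase (-0.31 ± 0.06, limma adjusted p 0.0020), Cdca7, a partner of the remodeller HELLS (-0.24 ± 0.07, 0.0130), and Ctcf, an insulator protein (-0.19 ± 0.05, 0.0204). None of the 10 was called in R595H/R595H, where the median was -0.09. Without both 1A libraries 2 of the 10 fell.

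Of 27 tested genes of S phase, the phase in which DNMT1 and UHRF1 act, 13 fell and none rose in Trim71-KO, where 9.37% of all genes fell and 9.24% rose. The median was -0.15, and the count was again 13 without both 1A libraries. Ccne1, the cyclin that opens S phase, fell by 0.80 on the log2 scale (limma adjusted p 8.2e-07). The helicase subunit genes Mcm3 (-0.41 ± 0.05) and Mcm5 (-0.37 ± 0.06) and the single-strand binding gene Rpa2 (-0.44 ± 0.07) fell as well. The mean of the 27 genes was 8.05 to 8.13 in Trim71-cond and 7.86 to 7.94 in Trim71-KO. It was 8.06 to 8.10 in WT, 7.98 to 8.06 in R595H/R595H and 8.05 to 8.14 in R595H/+. No S phase gene was called in R595H/R595H. The part of the S phase genes in the Uhrf1 and Dnmt1 values was not tested.

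Among 19 regulators and recruiters of new methylation, 3 rose and 3 fell in Trim71-KO, where 9.24% of all genes rose and 9.37% fell, with a median of 0.001. Rbl1, a pocket protein that represses E2F targets, rose by 0.32 ± 0.07 (limma adjusted p 0.0026), and Zfp57, which holds methylation at imprinted regions, by 0.22 ± 0.06 (0.0089). Nsd2, a histone H3 lysine methyltransferase, fell by 0.35 (0.0013), and L3mbtl2, a subunit of a Polycomb complex, by 0.31 (0.0097). The 2 others called, named after their values were seen, were Dppa3 (0.30 ± 0.10, limma adjusted p 0.0350), which protects against methylation by UHRF1 and DNMT1, and Nsd1 (-0.16 ± 0.04, 0.0155), a histone H3 lysine methyltransferase. None of the 19 was called in R595H/R595H. Of 10 listed readers of methylated CpG, 8 passed the filter on low values. In Trim71-KO 1 of the 8 rose, where 9.24% of all genes did, Zbtb33 (KAISO, 0.30 ± 0.10, limma adjusted p 0.0339). None of the 8 was called in R595H/R595H.

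On the list for TET partners and cofactor supply, 4 of 12 tested genes fell in Trim71-KO and none rose. There 9.37% of all genes fell, and the median of the list was -0.14. The isocitrate dehydrogenases Idh1 (-0.23 ± 0.07, limma adjusted p 0.0250) and Idh2 (-0.23 ± 0.06, 0.0085), which make the TET co-substrate 2-oxoglutarate, were among the 4. The others were Dppa2, a chromatin protein of early embryos (-0.37 ± 0.09, 0.0055), and Sin3a, a corepressor scaffold that binds TET1 (-0.18 ± 0.06, 0.0444). Without both 1A libraries it was 3 of 12. None was called in R595H/R595H.

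Of 16 listed genes of demethylation and base excision repair, 14 passed the filter on low values. In Trim71-KO 1 of the 14 fell, Ung, the uracil glycosylase (-0.34 ± 0.07, limma adjusted p 0.0028), a share below the 9.37% of all genes that fell. In R595H/R595H, where 2.19% of all genes rose, 2 of the 14 rose: Gadd45a, a stress protein linked to demethylation (0.68 ± 0.11, limma adjusted p 0.0074), and Neil1, a glycosylase of oxidised bases (0.34 ± 0.07, 0.0238). Neil1, like Tet2, was also higher in R595H/R595H than in R595H/+ (0.36 ± 0.07, limma adjusted p 0.0333). Over all genes, the 74 calls of that comparison became 3 with the Y-linked mean as a covariate and 7 without C14. The Gadd45a effect was smaller in Trim71-KO, at 0.07 ± 0.08, and the difference of both effects was called (-0.60 ± 0.14, limma adjusted p 0.0219). In R595H/+ against WT, Gadd45a differed by 0.33 ± 0.11 (limma adjusted p 0.567) and Neil1 by -0.03 ± 0.07 (0.959). Gadd45a was 0.34 ± 0.11 higher in R595H/R595H than in R595H/+, which was not called (limma adjusted p 0.132).

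In methyl donor metabolism 4 of 19 fell and 1 rose in Trim71-KO, where 9.37% of all genes fell and 9.24% rose, with a median of -0.05. Mat2a, which makes the methyl donor S-adenosylmethionine, fell by 0.59 (SE 0.11; limma adjusted p 0.0020). Srm, spermidine synthase, fell by 0.44 (0.0003) and Shmt2, the mitochondrial serine hydroxymethyltransferase, by 0.32 (0.0122), whereas Mtr, methionine synthase, rose by 0.27 (0.0021). The other that fell, named after its value was seen, was Mat2b, the regulatory subunit beside Mat2a (-0.21 ± 0.06, limma adjusted p 0.0175). None was called in R595H/R595H. Of 20 listed germ line genes that promoter methylation is known to silence, 14 passed the filter on low values. Those with the lowest values were therefore not tested. In Trim71-KO 1 of the 14 rose, Piwil2 (0.30 ± 0.10, limma adjusted p 0.0349), again beside 9.24% of all genes. Piwil2 encodes a PIWI protein of the piRNA pathway. In R595H/R595H 1 of the 14 rose, again Piwil2 (0.51 ± 0.09, limma adjusted p 0.0113), and 2 fell, where 2.19% of all genes rose and 1.23% fell, with a median of -0.23. Those were the RNA helicase gene Ddx4 (-0.52 ± 0.09, 0.0091) and, named after its value was seen, the piRNA pathway gene Mael (-0.38 ± 0.09, 0.0326). In R595H/+ against WT, Ddx4 differed by -0.43 ± 0.09 (limma adjusted p 0.393) and Piwil2 by 0.21 ± 0.09 (0.641). In R595H/R595H against R595H/+, Ddx4 differed by -0.10 ± 0.09 (limma adjusted p 0.618) and Piwil2 by 0.30 ± 0.09 (0.120). The germ line count in Trim71-KO became 1 higher and 2 lower without both 1A libraries.

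For the members called in a comparison, the genes with the most similar pattern were found over 17 values (8 libraries and 9 clones, each centred on its own system) among 9521 genes. Tet2 was followed most closely by Abcd3 (Pearson r 0.95), Arid5b (0.94) and Ntn1 (0.93), which also rose in both systems. Uhrf1 was followed by Keap1 (0.94), Col9a2 (0.92) and Gpd1l (0.91), and Dnmt3a by Npl, Dusp9 and Ezh2 (each 0.91), all 6 of which fell in Trim71-KO. For Dnmt1 the first was Mdh2 (0.92), for Dnmt3b Pafah2 (0.88) and for Dnmt3l Wdr45 (0.86). Pafah2 and Wdr45 were called neither in Trim71-KO (limma adjusted p 0.414 and 0.180) nor in R595H/R595H (0.163 and 0.354). The 17 values share groups and libraries and hold the genotype differences, so these are descriptions of pattern. A direction shared with the member follows from choosing by r and is no separate result.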

How the data were processed

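Poly(A) RNA of 20 libraries was sequenced. The submitters' processing notes name CASAVA 1.8, STAR and DESeq2, whereas build, counting and strand use are not given in these sources. The deposited score per gene and library is on a log scale. The authors' deposited values were read as log2 values because DESeq2's transformations use base 2; that is not stated, 1.58% lie below 0, and folds rest on it. They resemble regularized log values, so counts, depth and counting intervals cannot be had. Library medians were 5.15 to 5.20, and Lars2 held 0.334% to 13.2% of the linear sum.

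Genes with a mean of at least 3.32 (10 on a linear scale) were fitted with limma 3.58.1 in R 4.3.3 (lmFit, eBayes with trend and robust), Benjamini-Hochberg adjusted over all tested genes, and called at an adjusted p under 0.05. There was 1 fit of 8 conditional libraries, 1 of 9 clone means and 1 of all 17 values for the difference of effects. Permutation tests were exact and two-sided. Scripts were tested on simulated data. The reported Trim71-KO fit and its permutations treated the 8 conditional libraries as unpaired. Conditional codes were taken as pairs only for differences by code and in the alternative with a replicate block. That block gave 1392 calls over all genes, against 1783 as reported. The labels carry a day tag that same-coded libraries share (3A and 3B have the same day). The data alone would not pair the libraries of 2B, 3A and 3B, whose deviations correlated at -0.09, -0.12 and 0.13. Those of 1A correlated at -0.89. The Trim71-KO minus Trim71-cond difference of code 1A thus departed from the mean difference across genes. Alternatives changed the filter, scaling, variance settings, blocks and libraries. The 10 genes and the lists were chosen with earlier results of these data known. List genes were named by the smallest p among called genes, up to 4 for Trim71-KO and 2 for R595H/R595H. Similar genes are the 3 of highest Pearson r, passing over predicted gene models.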

Additional observations from a re-analysis of the deposited data

Results flagged for a closer look

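A single fit of both systems tested whether the Trim71-KO effect differed from the R595H/R595H effect. Among the genes named, it passed for 3, each lower in Trim71-KO relative to its control than in R595H/R595H. Srm differed by -0.65 ± 0.13 (SE; limma adjusted p 0.0093), with effects of -0.44 in Trim71-KO and 0.22 in R595H/R595H. Gadd45a differed by -0.60 ± 0.14 (limma adjusted p 0.0219), with effects of 0.07 and 0.68. Ccne1 differed by -0.52 ± 0.13 (limma adjusted p 0.0470), with effects of -0.80 and -0.28. Genotype and starting cells cannot be told apart in this test. None of the 10 writers and erasers passed it. Dixon's rule for 4 values, which compares a gap with the range, flagged no value in the 20 groups of 4 conditional libraries. Dnmt3a in Trim71-KO library 2B was not flagged, although it read 6.36 against 6.75 to 6.83 in the other 3. A group without a flag can therefore still hold a value that lies apart.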

How the results depend on the processing

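The calls of Dnmt3a, Uhrf1 and Tet2 in Trim71-KO and of Tet2 in R595H/R595H held under every alternative run. Members called in Trim71-KO, 5 as reported, were 3 without trend and robust settings, 4 with the replicate block, 4 with quantile normalization, 5 without both 1A libraries (an alternative chosen after seeing the data) and 3 to 5 with a library left out; the replicate block ended no call but that of Dnmt1. In R595H/R595H against WT, 2 as reported, they were 1 with equal linear totals and 1 to 2 with a clone left out. Against R595H/+, 1 as reported, they were 0 with equal linear totals, 0 with the Y-linked mean as a covariate, 2 with the clone as a random block (Dnmt3b gained, limma adjusted p 0.046) and 0 to 1 with a clone left out. In the test of the difference of effects, 0 as reported, they were 0 to 2 with a library or clone left out. For R595H/+ against WT the count was 0 throughout. Where a group fell to 2 clones the spread was shared over all genotypes. The cause of these changes was not tested. Over all genes, 328 calls in R595H/R595H against WT became 157 with equal linear totals, 191 with the 5/2 libraries alone, 134 with the Y-linked covariate, and 67 (without C14) to 541 (without C21) with a clone left out. Against R595H/+, 74 became 116 without a filter, 19 with equal totals, 213 with the random block, 3 with the Y-linked covariate and 7 (without C14) to 80 (without C23). In the difference of effects 136 became 83 with the 5/2 libraries alone, 204 without both 1A libraries and 40 (without C7) to 225 (without C21), and 70 higher and 66 lower became 70 and 32 with equal totals and 87 and 49 with equal medians; against R595H/+, 55 and 19 became 11 and 8 with equal totals.

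Differences near 0 that were never called changed sign. With equal totals Dnmt1 in R595H/R595H against WT was -0.011, and with equal medians -0.0044. Against R595H/+ it was 0.027 with quantile normalization, 0.026 with the 5/2 libraries alone and 0.033 with the Y-linked covariate, which also gave 0.023 for Dnmt3l and -0.052 for Uhrf2. Dnmt1 in R595H/+ against WT was -0.022 with the 5/2 libraries alone. With single libraries or clones left out, the Trim71-KO differences ran from -0.065 to 0.055 for Dnmt3b and -0.062 to 0.075 for Tdg. The differences of effects ran from -0.070 to 0.13 for Uhrf2 and -0.013 to 0.17 for Tet3. In R595H/R595H against WT, Dnmt1 ran from -0.022 to 0.049. In R595H/+ against WT, Dnmt1 ran from -0.022 to 0.049, Dnmt3b from -0.049 to 0.16, Uhrf1 from -0.015 to 0.10 and Tet3 from -0.0063 to 0.16. In R595H/R595H against R595H/+, Dnmt1 ran from -0.020 to 0.037, Dnmt3l from -0.16 to 0.040 and Uhrf2 from -0.010 to 0.089. Depth behind these values is unknown.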
